A study of Homo sapiens with 23 samples.

Results

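Long intergenic noncoding RNA (LINC) genes were examined across a time course of TRPS1 protein loss in T47D cells. The members were the 141 genes of the count table, out of 60605, whose GENCODE v44 symbol is LINC followed by a number and whose mean raw count over the 23 libraries was 200 or more. The table held 2271 LINC genes at any level, of which 2263 had at least 1 count. The members were thus selected on their mean count, and their levels are given as a description. At the edge of the minimum, LINC01409 (mean count 204.7), LINC02809 (204.5) and LINC02894 (201.3) lay inside, and LINC02848 (199.4), LINC00886 (198.8) and LINC00235 (198.3) lay outside.

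The assay was PRO-seq (precision run-on sequencing), in which polymerases engaged on DNA add labelled nucleotides to RNA in permeabilized cells, so that a read counts a polymerase in the act of transcription and not a stable transcript. T47D is a luminal, estrogen receptor-positive breast cancer cell line. The clone used here, dTAG-TRPS1 Clone 28, carries a degron tag in the native TRPS1 gene, which encodes a repressive transcription factor with a GATA-type zinc finger. All groups carried the tag. The control group received 0.1% DMSO for 24 h (4 libraries), and the dTAG groups received 50 nM dTAG-13 with 50 nM dTAGV-1, which recruit ubiquitin ligases to the tagged protein, for 0.5, 1, 2 or 4 h (4 libraries each) or 24 h (3 libraries, replicates 2 to 4). The clone is 1 line, and a DMSO group stands only at the 24 h length of treatment. Because the tag acts on protein, the transcription of TRPS1 itself does not check the labels. Library totals ran from 4408544 to 17571616 counts. All 8 luminal markers were transcribed in every library, with ESR1 at 2124 to 2698 CPM (counts scaled to the library total with TMM factors), while of 9 markers of other cell types COL1A1 was the highest at up to 15.2 CPM, and CD3E, KRT5, KRT14 and CDH5 were at 0 in at least 1 library.

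LINC genes are transcribed by RNA polymerase II, and most of their RNAs are annotated as not encoding a protein. Many are unstable and stay low in the standing RNA, so nascent reads show transcription that mature RNA can miss. Transcription at such loci often accompanies the activity of nearby enhancers and promoters, and for this reason the nearest protein-coding gene is given with the called members. TRPS1 binds GATA motifs and is known as a repressor in breast epithelium.

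The windows around the annotated starts of the 4 members that were called at 3 or more time points are shown because they let the reader see which of them hold a GATA word. Each window is hg38 reference sequence from 250 bases before the GENCODE start to 50 bases from it on, 5′ to 3′ on the strand of the gene. Capitals mark GATA words (AGATAA or AGATAG or TGATAA or TGATAG on either strand) and the estrogen response half-site AGGTCA on either strand.
LINC02694, chr15:38627755-38628054, plus strand: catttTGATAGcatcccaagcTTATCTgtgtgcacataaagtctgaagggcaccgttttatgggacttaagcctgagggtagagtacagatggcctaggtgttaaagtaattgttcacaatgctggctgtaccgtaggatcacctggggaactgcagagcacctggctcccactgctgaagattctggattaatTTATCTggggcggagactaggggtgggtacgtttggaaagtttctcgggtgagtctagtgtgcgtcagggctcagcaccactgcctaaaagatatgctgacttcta
LINC02568, chr15:63389886-63390185, plus strand: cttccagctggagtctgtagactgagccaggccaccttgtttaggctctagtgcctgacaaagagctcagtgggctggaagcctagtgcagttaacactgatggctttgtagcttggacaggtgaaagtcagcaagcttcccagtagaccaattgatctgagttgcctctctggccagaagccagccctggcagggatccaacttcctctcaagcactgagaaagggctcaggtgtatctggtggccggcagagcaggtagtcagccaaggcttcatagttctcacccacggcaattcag
LINC02925, chr22:46541245-46541544, plus strand: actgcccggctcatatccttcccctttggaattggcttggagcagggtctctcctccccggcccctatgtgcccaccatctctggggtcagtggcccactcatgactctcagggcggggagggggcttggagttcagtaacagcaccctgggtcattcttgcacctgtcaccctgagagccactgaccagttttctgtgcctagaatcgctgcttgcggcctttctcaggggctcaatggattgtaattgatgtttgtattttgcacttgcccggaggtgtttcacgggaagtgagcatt
LINC01322, chr3:165206679-165206978, plus strand: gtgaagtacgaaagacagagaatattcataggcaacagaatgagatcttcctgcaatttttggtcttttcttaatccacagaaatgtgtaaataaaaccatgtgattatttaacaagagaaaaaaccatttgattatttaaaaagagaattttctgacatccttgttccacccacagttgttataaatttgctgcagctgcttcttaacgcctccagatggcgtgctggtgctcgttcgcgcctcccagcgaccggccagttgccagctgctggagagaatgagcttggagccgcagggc

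The LINC02694 window held 3 GATA words, starting 245, 229 and 56 bases before the gene start, and the other 3 windows held neither word. Among the 141 members, 39 (27.7%) had a GATA word in this window and 18 (12.8%) had the half-site. Over all 25986 tested genes with a window these shares were 24.0% and 13.7%. Of the 11 members called against DMSO, 5 held a GATA word, namely LINC02694, LINC00578, LINC02057 and LINC03000, which rose, and LINC01290, which fell. Both words of LINC01290 lie within EMP2, the gene upstream on the same strand. With the block included 11 of 29 called members (37.9%) held a GATA word, and the half-site was found in 1 of 11 and 3 of 29. A word match is a description of the letters and not a binding site.

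The name of the class was checked against the annotation. By GENCODE, 135 members were long noncoding RNA genes, 5 were pseudogenes and 1, LINC02210-CRHR1, was a protein-coding read-through gene. Only 40 members overlapped no annotated gene. A further 40 overlapped a gene on the other strand only, and 61 overlapped a gene on their own strand, including 12 that overlapped a protein-coding gene. "Intergenic" thus held for 40 of 141 genes in the strict sense of no overlap with any annotated gene, however short or little transcribed. Overlap with a protein-coding gene on either strand was found for 25 members. The members are called LINC genes below. Whether the counting used strand was settled from the data. Among 822 genes nested on the other strand of a well transcribed protein-coding gene, the median count per base was 0.0373 of that of the host, against 0.968 for 279 genes nested on the same strand. For the other strand the upper quartile was 0.209. By the median, reads from opposite strands were therefore largely kept apart. How many reads cross strands at a given gene was not tested. Genes that overlap on 1 strand share reads across introns, and their values are uncertain.

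The members spanned 248 bases to 1.23 Mb with a median of 72231 bases, against a median of 45404 bases for 9345 protein-coding genes at the same count minimum. Per length of gene the members were less transcribed than these, with a median level of 0.796 CPM per kb of annotated span against 1.27 for the protein-coding genes and 1.27 for 1065 other long noncoding RNA genes. The members together held 0.855% to 1.01% of the counts of a library. The count minimum sets the lower edge of this relation, since a long gene reaches 200 counts at a low density.

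**Figure D1:**
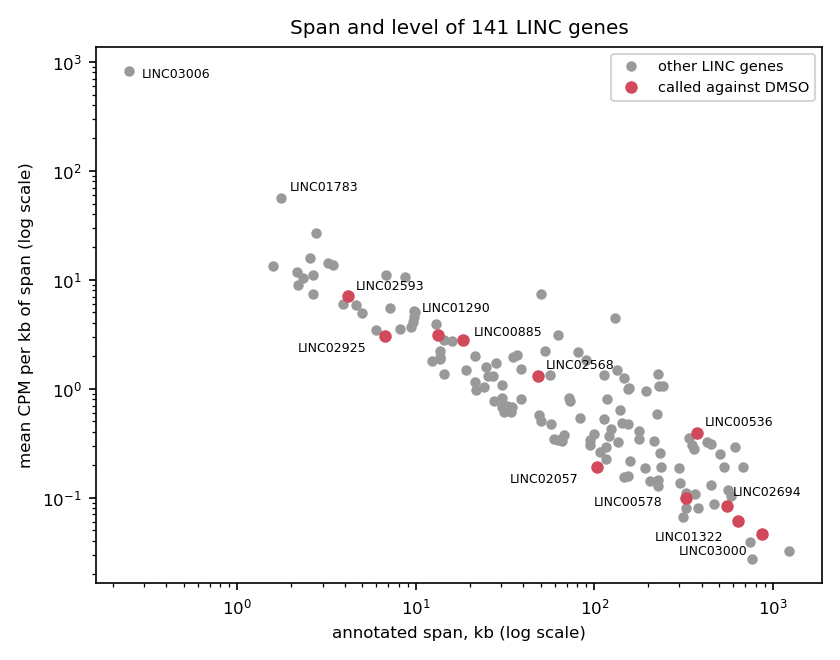
Annotated span in kb (x axis, log scale) and mean CPM per kb of span over the 23 libraries (y axis, log scale) for the 141 LINC genes. Red marks the 11 genes called against DMSO without the replicate block. LINC03006 stands at the top left with 816 CPM per kb, and the 7 genes that rose lie at spans of 48185 bases or more while the 4 that fell lie at 18378 bases or less.

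The highest density by far belonged to LINC03006 (chromosome 7, 65770473 to 65770720, minus strand), a pseudogene-annotated unit of 248 bases inside a longer gene of the same symbol that the table does not list. It had 816 CPM per kb. Its level was 203 to 211 CPM in the DMSO libraries and 191 to 214 CPM in the dTAG libraries, and these ranges overlapped, although the 24 h libraries (193 to 201 CPM) all lay below DMSO with a log2 fold change of -0.08 (FDR = 0.749). LINC01783 followed with 56.7 CPM per kb, then LINC01970 (27.0), LINC02939 (15.8) and LINC01011 (14.2). LINC02939 lies wholly inside MIRLET7BHG, the host gene of let-7 microRNAs, on the other strand. LINC01011 starts 20 bases from NQO2, a quinone reductase gene, on the same strand, so that 99.4% of its span is shared with NQO2. None of these 5 genes was called at any of the 5 times by edgeR, with or without a replicate block, or by DESeq2, and 1 of the 25 values had an unadjusted p under 0.05.

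Each dTAG time was contrasted with the same DMSO libraries in 1 edgeR quasi-likelihood fit over all 26057 tested genes, and genes at a Benjamini-Hochberg adjusted p (FDR) under 0.1 were called. At 0.5 h, 3 of 141 members were called (2.13%), 2 higher and 1 lower, against 0.476% of all tested genes (0.234% higher and 0.242% lower). At 1 h, 6 members were called (4.26%), 4 higher and 2 lower, against 1.25% (0.514% and 0.733%). At 2 h the count was 4 (2.84%), 3 of them higher, against 0.733% (0.43% and 0.303%). At 4 h it was 4 (2.84%), again 3 higher, against 0.833% (0.526% and 0.307%). At 24 h, 6 were called (4.26%), 5 higher and 1 lower, against 0.863% (0.564% and 0.299%). Genes tested include many low genes that could not easily be called, and among protein-coding genes at the same count minimum the shares were 0.92%, 2.29%, 1.34%, 1.52% and 1.66% in order of time. Other long noncoding RNA genes at that minimum stood at 1.97%, 3.57%, 2.54%, 2.35% and 1.97%.

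With the replicate number as a block the counts were over 1.5 times larger at each time, namely 12, 15, 11, 13 and 13 members. These were 8.51%, 10.6%, 7.8%, 9.22% and 9.22% of the members, against 2.48%, 3.25%, 2.43%, 2.49% and 2.65% of all tested genes. Protein-coding genes at the same count minimum stood at 5.07%, 5.99%, 4.56%, 4.67% and 5.14% with the block. Other long noncoding RNA genes stood at 5.63%, 7.23%, 5.73%, 5.45% and 5.07%. Per the treatment protocol, replicates were collected at different times of 1 day and the groups of a replicate simultaneously, though the library titles give a replicate number and no time. Without the block 11 different members were called in at least 1 contrast with DMSO, 7 of them higher and 4 lower, with 23 calls in all. With the block 29 were called, 20 higher and 9 lower, and these included all 11. Over all tested genes, 2.43% were called at 1 or more of the 5 times without the block and 7.89% with it, against 7.80% and 20.6% of the members. At the same count minimum these shares were 4.60% and 14.6% for protein-coding genes and 4.88% and 14.2% for other long noncoding RNA genes. No member was called higher at 1 time and lower at another in either fit. Over all 141 members the median log2 fold change ran from 0.01 at 0.5 h to 0.04 at 4 h, close to the medians over all tested genes of 0.00 to 0.01. The share of members with a positive log2 fold change was 54.6%, 56.7%, 63.8%, 65.2% and 61.0% in order of time, against 53.2%, 52.6%, 51.0%, 54.7% and 50.9% over all tested genes. Other long noncoding RNA genes at the same count minimum stood at 58.3%, 53.5%, 60.5%, 55.2% and 59.2%, and protein-coding genes at 49.5%, 48.0%, 53.0%, 56.9% and 50.2%. With the block the members stood at 53.9%, 55.3%, 63.8%, 63.1% and 51.8%, so the 24 h share then lay near the 51.0% of all tested genes.

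**Figure D2:**
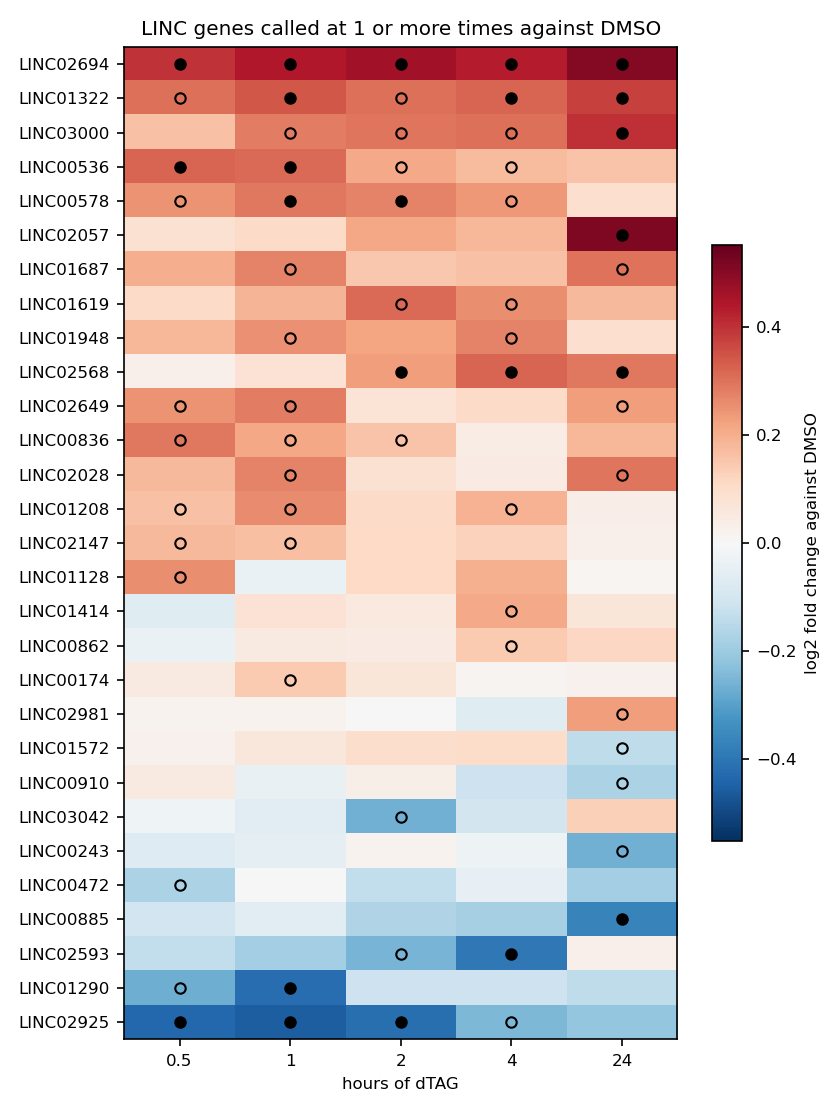
Log2 fold change against DMSO (colour) at each time of dTAG (x axis, hours) for the 29 LINC genes called in any contrast with DMSO, ordered by their mean. Filled circles mark calls without the replicate block and open circles mark calls with the block alone. LINC02694 was called at all 5 times, LINC02925 was lowest at 0.5, 1 and 2 h, and LINC02057 stood out at 24 h.

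LINC02694 (chromosome 15, 38628005 to 39180499, plus strand) was the member raised at every time. In DMSO its 4 libraries had 35.6, 32.5, 38.7 and 35.5 CPM. After 0.5 h of dTAG they had 45.7, 46.3, 48.8 and 47 CPM, and after 24 h 44.4, 53.2 and 53.9 CPM. Every dTAG library at every time lay above every DMSO library, and all 19 same-numbered pairs were higher. The log2 fold change was 0.40 ± 0.08 (SE) at 0.5 h (edgeR FDR = 0.0345) and 0.44, 0.46, 0.43 and 0.50 at 1, 2, 4 and 24 h (FDR = 0.00864, 0.00600, 0.0104 and 0.00451). It was thus already near its later size at 0.5 h. Here and below, fits with a replicate number left out had no replicate block. Leaving out replicate 4 took the FDR to 0.448, 0.137, 0.263, 0.227 and 0.330 in order of time, with log2 fold changes of 0.39 to 0.47. Without replicate 2 the FDR at 0.5, 2 and 4 h was 0.252, 0.105 and 0.127, and without replicate 1 that at 0.5 h was 0.136. With libraries scaled to total counts only, the calls at 0.5 and 4 h were lost (FDR = 0.253 and 0.131). On the other strand, a long noncoding RNA gene without a symbol covers 57.0% of the LINC02694 span. That gene had a mean count of 1523 against 488 for LINC02694, and stray reads from it were not tested.

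The nearest protein-coding gene to LINC02694 is RASGRP1, which encodes a guanine nucleotide exchange factor that activates Ras. It lies on the other strand, with 62430 bases between the 2 starts. RASGRP1 had 77.4 to 88.1 CPM in DMSO and 112, 121 and 116 CPM at 24 h, and the groups did not overlap. In order of time its log2 fold change was 0.15, 0.21, 0.31, 0.38 and 0.48 (FDR = 0.307, 0.0541, 0.00237, 0.000248 and 6.82e-05). With the replicate block it was called at 0.5 h too (FDR = 0.0428). The RASGRP1 effect at 24 h was larger than at 0.5 h (difference 0.33 ± 0.05, FDR = 0.00286), while for LINC02694 that difference was 0.11 and was not called.

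LINC02925 (chromosome 22, 46541495 to 46548196, plus strand), named as the marker of the class with earlier results known, fell. DMSO libraries had 25.1, 25.4, 22.0 and 27.8 CPM, and 0.5 h libraries had 17.6, 18.4, 18.2 and 19.9 CPM. The 1 h libraries (17.1 to 19.3 CPM) and 2 h libraries (17.9 to 19.5 CPM) also lay below all DMSO libraries. At 4 h (19.7 to 22.2 CPM) and 24 h (20.9 to 22.9 CPM) the ranges touched that of DMSO. The log2 fold change was -0.43 ± 0.07 at 0.5 h, -0.46 at 1 h and -0.42 at 2 h (FDR = 0.00315, 0.00145 and 0.00218). It was -0.25 at 4 h (FDR = 0.150, and 0.0830 with the replicate block) and -0.21 at 24 h (FDR = 0.312). Without replicate 2 the FDR at 0.5 h was 0.132, and without replicate 4 that at 2 h was 0.115, while the 1 h call held without any of the 4 numbers (highest FDR 0.0656).

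LINC02925 starts 3875 bases from CELSR1, on the other strand. CELSR1 encodes a cadherin-type adhesion receptor of the planar cell polarity pathway. It had 182 to 208 CPM in DMSO and 148 to 158 CPM at 1 h, which did not overlap. CELSR1 had log2 fold changes of -0.11, -0.33, -0.21, -0.19 and -0.17 in order of time (FDR = 0.626, 0.00238, 0.0928, 0.144 and 0.280). With the block CELSR1 was also called at 4 h (FDR = 0.00636) and 24 h (FDR = 0.0761). Member and neighbour were both lower at each time, and at 0.5 h the member was called and the neighbour was not, a difference that was not itself tested.

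LINC02568 (chromosome 15, 63390136 to 63438320, plus strand) rose later. Its DMSO libraries had 55.2, 56.9, 59.3 and 55.2 CPM, and its 0.5 h libraries had 58.5, 59.1, 57.0 and 56.6 CPM, within the range of DMSO. At 4 h it had 71.2, 68.0, 73.1 and 70.6 CPM and at 24 h 72.0, 70.2 and 66.1 CPM, all above DMSO. For LINC02568 the log2 fold change was 0.03 at 0.5 h, 0.08 at 1 h, 0.23 ± 0.04 at 2 h (FDR = 0.00705), 0.32 at 4 h (0.000248) and 0.29 at 24 h (0.00138). The effect at 24 h exceeded that at 0.5 h by 0.26 ± 0.04 (FDR = 0.00403). At 4 h and 24 h the calls held without any of the 4 replicate numbers (highest FDR 0.0331 and 0.0816), and at 2 h the FDR was 0.186 without replicate 1, 0.217 without replicate 4 and 0.198 with total counts only.

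Its neighbour moved the other way. CA12, which encodes a carbonic anhydrase of the cell surface and is a known estrogen-responsive gene, lies on the other strand with 8290 bases between the 2 starts. It had 230 to 259 CPM in DMSO, 182 to 205 CPM at 0.5 h and 170 to 194 CPM at 1 h, below DMSO in every library. The change in CA12 was -0.35 ± 0.05 on the log2 scale at 0.5 h (FDR = 0.00277), and -0.46, -0.25, -0.10 and -0.22 at the later times (FDR = 0.000243, 0.0366, 0.768 and 0.115). With the block the 24 h fall was called (FDR = 0.00189). At 2 h, LINC02568 was called higher and CA12 was called lower in the same libraries.

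**Figure D3:**
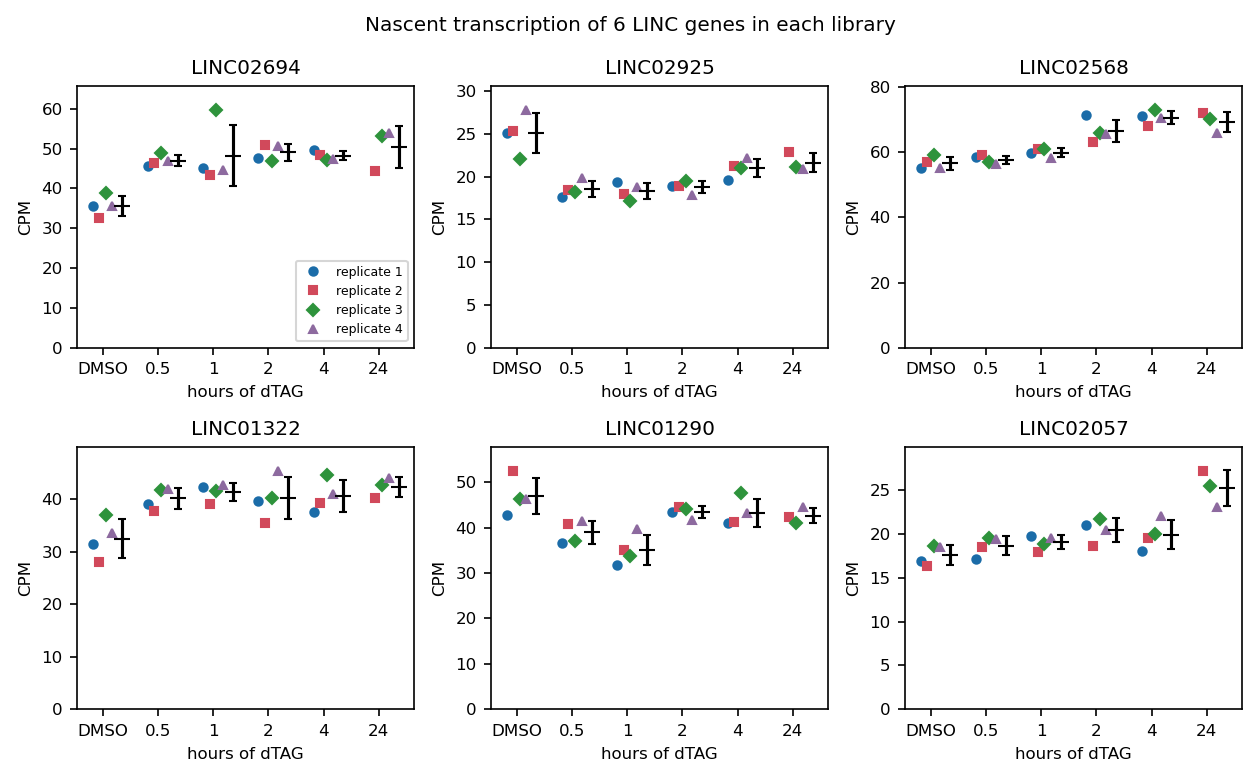
CPM (y axis, from 0) of 6 LINC genes in each library by hours of dTAG (x axis), with symbols for the replicate numbers and black bars for the mean and SD of each group. LINC02694 and LINC01322 were higher from 0.5 h on, LINC02925 and LINC01290 were lower early, LINC02568 was higher from 2 h on, and LINC02057 was higher at 24 h.

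LINC01322 (chromosome 3, 165206929 to 165846519, plus strand) was higher at all times, with 31.5, 28.0, 36.9 and 33.5 CPM in DMSO, 42.3, 39.0, 41.4 and 42.7 CPM at 1 h, and finally 40.2, 42.6 and 43.9 CPM at 24 h. All 19 pairs were higher, and the groups overlapped DMSO only at 2 h. LINC01322 had log2 fold changes of 0.34 ± 0.08 at 1 h (FDR = 0.0409), 0.32 at 4 h (0.0689) and 0.37 at 24 h (0.0346), and 0.30 at both 0.5 h (0.132) and 2 h (0.105). With the block all 5 times were called (FDR of at most 0.00543). Each of the calls without the block, at 1, 4 and 24 h, lost the threshold when any of the 4 replicate numbers was left out. The FDR was then 0.109 to 0.475, with log2 fold changes of 0.28 to 0.44. Calls with the block were not tested in this way. Those at 1 and 4 h were also lost with total counts only (FDR = 0.234 and 0.388) and with no filter on low counts (0.139 and 0.209). LINC01322 overlaps BCHE, the butyrylcholinesterase gene, on the other strand over 10.1% of its span. Mean counts were 2430 for BCHE and 415 for LINC01322, and stray BCHE reads in the LINC01322 counts were not tested. BCHE had log2 fold changes of 0.12, 0.31, 0.27, 0.30 and 0.39 in order of time, not called without the block (FDR of 0.588 to 1.00) and called from 1 h on with it (FDR of 0.00133, 0.00610, 0.00128 and 0.000510). BCHE ranged from 155 to 222 CPM among the DMSO libraries alone.

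LINC00536 (chromosome 8, 115950511 to 116325062, minus strand) lies upstream of TRPS1, the targeted gene, with 140838 bases between them on the same strand. It had 136, 110, 140 and 130 CPM in DMSO and 153, 152, 172 and 167 CPM at 0.5 h. Groups did not overlap at 0.5, 1 and 2 h. Its log2 fold change was 0.32 ± 0.06 at 0.5 h (FDR = 0.0232) and 0.31 at 1 h (FDR = 0.0175), and then 0.21, 0.17 and 0.16 without a call. With the block 2 h and 4 h were called too (FDR = 0.0183 and 0.0705). Without replicate 2, 3 or 4 the FDR at 0.5 h was 0.160, 0.334 and 0.434, and without replicate 3 or 4 that at 1 h was 0.147 and 0.270. Both calls were lost with total counts only (FDR = 0.265 and 0.192). TRPS1 itself was higher in all 19 pairs, with 7997 to 10157 CPM in DMSO and log2 fold changes of 0.13, 0.22, 0.15, 0.22 and 0.28 in order of time. It was not called without the block (FDR of 0.288 to 0.831) and was called at all 5 times with it (FDR of 0.000135 to 0.0558).

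LINC00578 (chromosome 3, 177441910 to 177767379, plus strand) had 30.0, 25.7, 29.9 and 26.6 CPM in DMSO and 33.6, 31.8, 36.7 and 35.5 CPM at 1 h. Up to 4 h every dTAG library lay above DMSO, and at 24 h (27.5 to 31.2 CPM) the ranges overlapped. The log2 fold change was 0.29 ± 0.07 at 1 h (FDR = 0.0339) and 0.27 at 2 h (0.0603), with 0.25 and 0.24 at 0.5 and 4 h, called with the block alone (FDR = 0.0614 and 0.0923). The 1 h call was lost without each number (FDR of 0.115 to 0.373) and the 2 h call without 1, 2 or 4 (0.145, 0.602 and 0.755). Both were lost with total counts only (0.266 and 0.276) and with no filter on low counts (0.165 and 0.200). Its nearest coding gene TBL1XR1, a subunit of nuclear receptor corepressor complexes, starts 213910 bases away and had log2 fold changes of -0.06 to 0.03.

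LINC01290 (chromosome 16, 10514842 to 10528202, minus strand) fell at 1 h. It had 42.7, 52.4, 46.3 and 46.4 CPM in DMSO, 36.6, 40.8, 37.0 and 41.5 CPM at 0.5 h, 31.6, 35.1, 33.8 and 39.7 CPM at 1 h, and 41.6 to 44.5 CPM at 2 h. The 0.5 h and 1 h libraries lay below DMSO and those of 2 h did not. The log2 fold change was -0.27 at 0.5 h (FDR = 0.131, and 0.0207 with the block) and -0.42 ± 0.07 at 1 h (FDR = 0.00369, and 0.111 without replicate 2). It begins 220 bases past the end of EMP2, a tetraspan membrane protein gene on the same strand, so that transcription running past the end of EMP2 and transcription from a start of its own cannot be told apart in these counts. EMP2 was called at 0.5 h, with -0.28 ± 0.05 (FDR = 0.0135), and had -0.14 at 1 h (FDR = 0.315). The EMP2 libraries had 150 to 165 CPM in DMSO, 123 to 144 CPM at 0.5 h and 136 to 150 CPM at 1 h. EMP2 was thus lowest at 0.5 h and LINC01290 at 1 h.

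**Figure D4:**
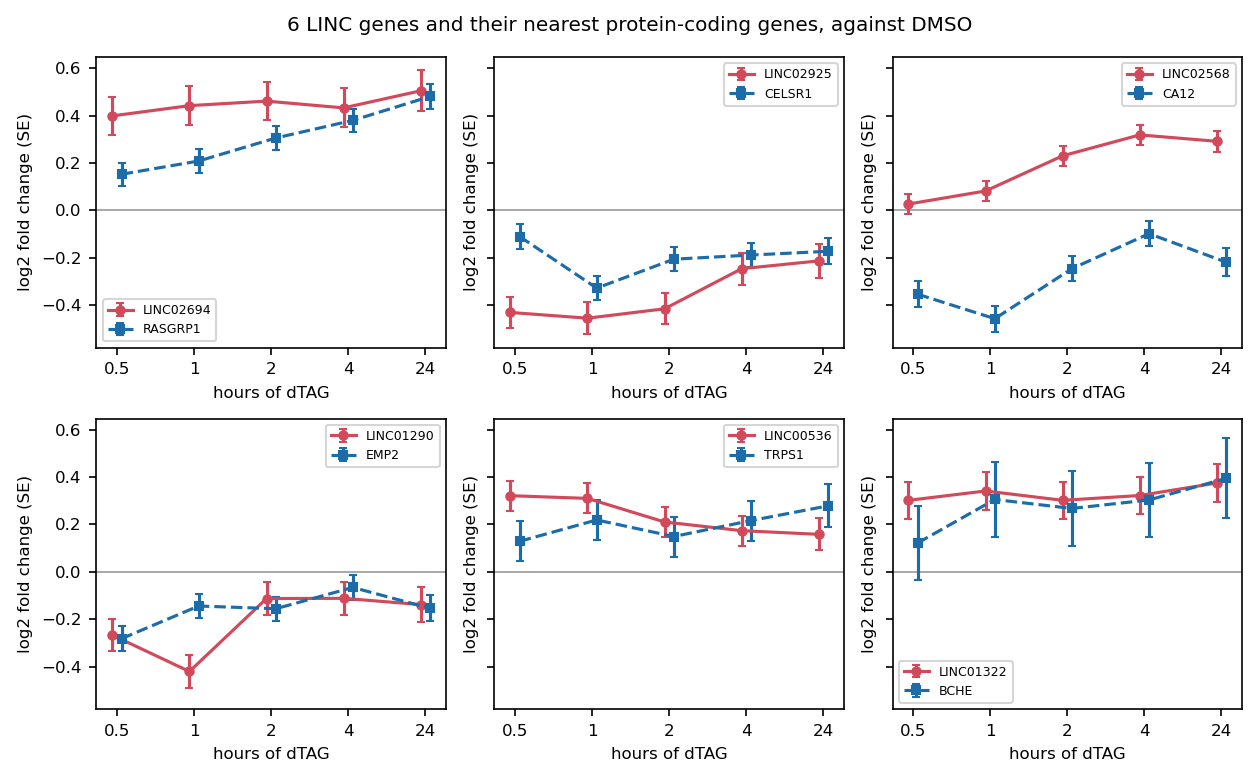
Log2 fold change against DMSO with SE (y axis) by hours of dTAG (x axis, not to scale) for 6 LINC genes (red circles) and their nearest protein-coding genes (blue squares). LINC02568 stayed above 0 while CA12 stayed below it, and the other pairs lay on the same side of 0 at every time.

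The other 4 called members passed at 1 time each. LINC02593 (chromosome 1, 916865 to 921016, minus strand) had 32.1 to 34.2 CPM in DMSO and 21.0, 24.2, 27.0 and 26.8 CPM at 4 h, below DMSO throughout. At 24 h it had 32.2 to 34.6 CPM, within or above the DMSO range. The log2 fold change was -0.39 ± 0.08 at 4 h (FDR = 0.0282, and 0.333, 0.254 and 0.208 without replicate 2, 3 or 4, or 0.228 with total counts only). Its neighbour SAMD11, which starts 2907 bases away on the other strand, had -0.25 at 4 h (FDR = 0.360) and was not called. LINC00885 (chromosome 3, 196142516 to 196160893, plus strand) had 51.3 to 60.2 CPM in DMSO and 46.3, 40.9 and 44.3 CPM at 24 h, which did not overlap. Its log2 fold change at 24 h was -0.37 ± 0.09 (FDR = 0.0595, and 0.148, 0.581 and 0.591 without replicate 2, 3 or 4). This call was also lost with total counts only (0.589) and with no filter on low counts (0.156). Its nearest coding gene ZDHHC19, 36559 bases away on the other strand, had the opposite sign with 0.23 ± 0.31 at 24 h (FDR = 0.949), at a mean count of 13.5.

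LINC02057 (chromosome 5, 61201304 to 61304811, minus strand) had the largest called change of the members against DMSO. DMSO libraries had 16.9, 16.3, 18.6 and 18.5 CPM and 24 h libraries had 27.2, 25.5 and 23.1 CPM. The 0.5 h libraries (17.2 to 19.5 CPM) overlapped DMSO. The log2 fold change was 0.51 ± 0.08 at 24 h (FDR = 0.00116, and at most 0.0816 without any 1 replicate number) and exceeded that at 0.5 h by 0.43 ± 0.08 (FDR = 0.00525). Its neighbour ZSWIM6, 27447 bases away and on the other strand, had 0.16 at 24 h (FDR = 0.447, and 0.0262 with the block). SMIM15-AS1, a long noncoding RNA gene on the other strand, covers 29.7% of the LINC02057 span. Its mean count was 965 against 212 for LINC02057, and stray reads from it were not tested. LINC03000 (chromosome 5, 164296696 to 165171643, plus strand), 777138 bases from the nearest coding gene MAT2B, had 33.9, 29.9, 36.4 and 36.7 CPM in DMSO and 39.8, 48.6 and 47.1 CPM at 24 h. LINC03000 thus rose by 0.40 ± 0.10 on the log2 scale at 24 h (FDR = 0.0853), and from 1 to 4 h it was 0.28 to 0.30, called with the block alone (FDR = 0.0461, 0.0293 and 0.0370). Without a replicate number the 24 h FDR was 0.107 to 0.680, and with no filter on low counts it was 0.115.

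The other 18 members were called with the replicate block alone, 13 higher and 5 lower. Of these, LINC00836, LINC01208 and LINC02649 passed at 3 times each and are described for that reason, after their values were seen. LINC00836 had 156, 149, 169 and 155 CPM in DMSO and 170, 185, 216 and 199 CPM at 0.5 h, all above DMSO. Its log2 fold change was 0.29 ± 0.07 at 0.5 h without the block (FDR = 0.119, and 0.000539 with it). By 4 h it was 0.04, and the libraries (150 to 172 CPM) overlapped DMSO. DESeq2 also called LINC00836 at 0.5 h (FDR = 0.00886). LINC01208 had 138, 113, 136 and 126 CPM in DMSO and 157, 141, 156 and 161 CPM at 1 h, with 0.26 ± 0.07 (FDR = 0.138, and 0.00270 with the block). LINC02649 had 45.5, 36.9, 40.1 and 35.2 CPM in DMSO and overlapped it at every time but was higher in 17 of 19 pairs, with 0.28 ± 0.09 at 1 h (FDR = 0.205, and 0.0507 with the block). At those times the nearest coding genes had log2 fold changes of 0.12 (GPR158, for LINC00836), 0.02 (TBL1XR1, for LINC01208) and -0.06 (PFKFB3, for LINC02649). An annotated gene on the same strand overlaps 0.97% of the span of LINC00836, 2.96% of LINC02649 and 0.63% of LINC01208. Reads in these short stretches may be shared and are uncertain. Overlaps of similar size on the same strand lie in LINC02694 (1.33% and 2.24%) and LINC00578 (2.34%).

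The F-test over the times from 0.5 to 4 h called 7 members (4.96%) against 1.33% of 25255 tested genes, and 21 (14.9%) with the replicate block against 4.6%. Protein-coding genes at the same count minimum stood at 2.59% and 9.06%, and other long noncoding RNA genes at 3.38% and 7.79%. LINC02568 led with FDR = 0.000790, followed by LINC02925 (0.00358) and LINC02694 (0.0147). LINC01290 and LINC00536 also passed. LINC01117 (FDR = 0.0444) and LINC02615 (0.0755) passed here and in no single contrast: LINC01117 had log2 fold changes of 0.09, 0.19, -0.03 and -0.19 at 0.5, 1, 2 and 4 h, and LINC02615 had -0.16, -0.04, 0.13 and 0.10.

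Between 24 h and 0.5 h, 4 members differed (2.84%) against 1.99% of tested genes, and 25 (17.7%) with the block against 6.34%. At the same count minimum these shares were 4.10% and 12.4% for protein-coding genes and 2.16% and 9.58% for other long noncoding RNA genes, so that without the block the members lay below the protein-coding genes. LINC02568 and LINC02057 were higher at 24 h, as given above. LINC01983 had 21.8, 23.6, 23.5 and 25.5 CPM at 0.5 h, against 28.3, 28.7 and 31.5 CPM at 24 h, a difference of 0.32 ± 0.09 (FDR = 0.0994). Its DMSO libraries (22.5 to 31.6 CPM) covered both, and its neighbour TNK2 had -0.11 and -0.04 against DMSO at these times. LINC02457 had 34.9, 38.4, 36.1 and 33.9 CPM at 0.5 h, against 29.3, 26.3 and 26.6 CPM at 24 h, a difference of -0.39 ± 0.11 (FDR = 0.0898). Its DMSO libraries ran from 25.0 to 37.4 CPM, and its neighbour MAP1LC3B2 had 0.16 and 0.35.

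The 7 members called higher without the block were long, with spans of 48185 to 874948 bases (median 374552). The 4 called lower without it were short, with spans of 4152 to 18378 bases. With the block the ranges overlapped, at 30320 to 874948 bases for 20 higher members (median 132405) and 4152 to 428734 bases for 9 lower members (median 32449). Protein-coding genes at the same count minimum that were called higher had a median span of 81154 bases and those called lower had 63275. Other long noncoding RNA genes stood at 111823 and 32837 bases. At 4 h the 63 members of 100 kb or more had a median log2 fold change of 0.08 and the 38 members under 20 kb had 0.01, and at 0.5 h these medians were 0.00 and 0.01. The members had 0.07 and -0.03 at 1 h, 0.05 and 0.02 at 2 h, and 0.02 and 0.00 at 24 h. Other long noncoding RNA genes in the same span classes had 0.05 and -0.01 at both 1 h and 4 h, and 0.03 and 0.02 at 24 h. Protein-coding genes in these classes had 0.00 and -0.01 at 1 h and 0.02 and 0.01 at 4 h. The difference by span was thus shared with other long noncoding RNA genes, was smaller in protein-coding genes at 1 and 4 h, and was small at 24 h. Long members are also the ones of low density, and the part of density in these values was not tested.

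The nearest protein-coding gene overlapped the member on the same strand for 11 members and on the other strand for 14. Starts on opposite strands lay within 1000 bases for 8 members, and 19 members began within 10 kb past the end of a coding gene on the same strand. For the rest, 15 lay otherwise within 10 kb, 40 at 10 to 100 kb and 34 at over 100 kb, and the median gap over all members was 16525 bases. Of the 116 members that did not overlap their nearest coding gene, 36 (31.0%) were arranged head to head with it, on the other strand and with the 2 starts facing. This held for 6 of the 10 such members that were called (LINC02694, LINC02925, LINC02568, LINC00578, LINC02593 and LINC02057), and for 10 of 25 (40.0%) when members called with the block were included. The gaps of these 6 pairs ran from 2907 to 213910 bases. Of the 8 members whose start lay within 1000 bases of the other start, 0 were called without the block and 0 with it.

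In the 23 calls of a member at a time, the nearest coding gene had a log2 fold change of the same sign in 18 (78.3%), and it was itself called in 7, of which 6 had the same sign. The exception was LINC02568 with CA12 at 2 h. These 23 calls come from 11 members that were compared with 1 set of DMSO libraries, so they are not independent. With the block the share was 51 of 63 (81.0%). Among calls of members that overlap no annotated gene it was 5 of 8 (62.5%), from 4 members. The calls of opposite sign among these were all of LINC02568 with CA12, at 2, 4 and 24 h. Over the 125 members whose nearest coding gene was tested, called or not, the sign was the same in 57.6%, 56.0%, 59.2%, 58.4% and 52.0% in order of time. Pearson's r of the 2 log2 fold changes across these 125 pairs, which share libraries and depth, was 0.24, 0.36, 0.23, 0.30 and 0.18.

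**Figure D5:**
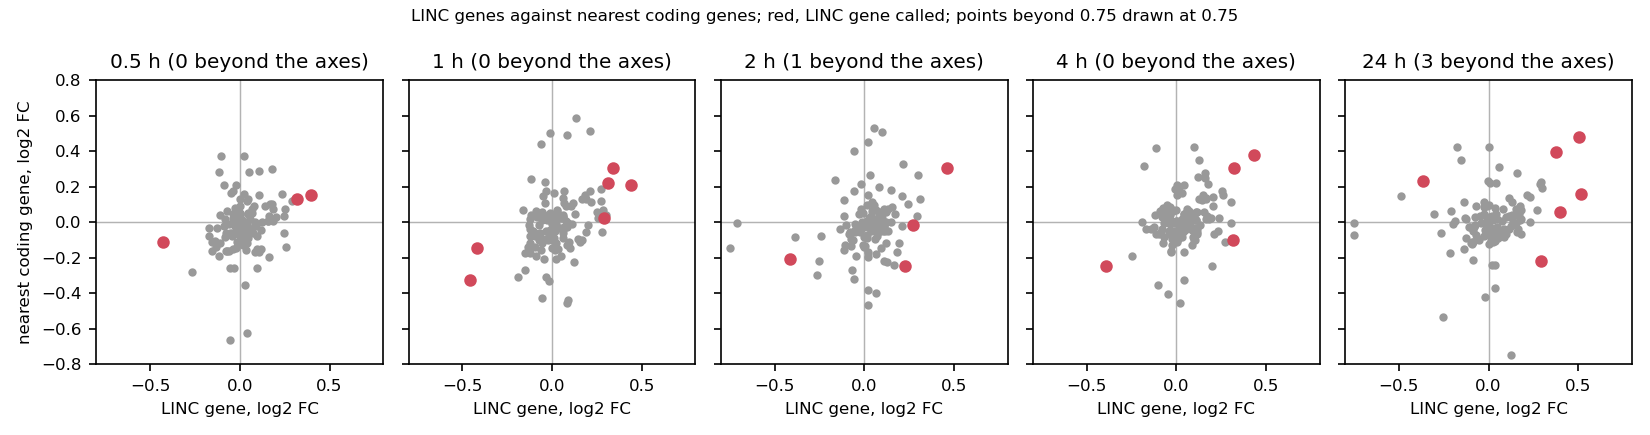
Log2 fold change against DMSO of each LINC gene (x axis) and its nearest protein-coding gene (y axis) at each time, for 125 pairs. Red marks pairs whose LINC gene was called without the replicate block, and points beyond 0.75 are drawn at 0.75. Most red points lie in the upper right or lower left, where both have the same sign, and most grey points lie near 0 without a clear slope.

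LINC genes with known links to breast cancer cells had been listed by name. Of 10, 4 were members and the other 6 were under the count minimum, with mean counts of 2.39 to 98.6. LINC00511 had 100 to 116 CPM in DMSO and log2 fold changes of -0.06 to 0.02, LINC00467 had 104 to 132 CPM and -0.01 to 0.03, and LINC00963 had 72.5 to 83.7 CPM and -0.14 to 0.04. LINC00472, which holds the genes of the microRNAs miR-30a and miR-30c on its strand, had 55.7 to 65.7 CPM in DMSO and -0.19 to 0.00. Without the block edgeR called 0 of these 20 values, as did DESeq2, and 1 had an unadjusted p under 0.05. With the block LINC00472 was called lower at 0.5 h (FDR = 0.0820).

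LINC02672, LINC01783 and LINC01623 had the most uneven levels among libraries of 1 group. LINC02672 ran from 3.29 to 142 CPM over the 23 libraries, with a coefficient of variation of 89.4% in DMSO. LINC01783 ran from 30.7 to 356 CPM (74.0% in DMSO) and LINC01623 from 10.5 to 92.7 CPM (41.2%), both with the highest value in the 4 h library of replicate 1, which was the shallowest. Over all replicate 1 libraries LINC01783 had 117 to 356 CPM, against 30.7 to 198 CPM in the other replicates. For LINC01623 these ranges were 27.5 to 92.7 CPM and 10.5 to 31.0 CPM. The median coefficient of variation in DMSO over the members was 7.94%. Fold changes of these 3 genes reached 1.34 at 4 h and -1.84 at 24 h on the log2 scale for LINC02672, with SE of 0.97 and 1.18. Replicate 1, in which LINC02672 had 34.2 to 76.5 CPM, is absent at 24 h, and its part in the 24 h value was not tested. Of the 15 values of these 3 genes, 0 were called by edgeR, with or without the block, or by DESeq2, and 0 had an unadjusted p under 0.05.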

How the data were processed

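PRO-seq libraries of dTAG-TRPS1 Clone 28 were grouped by title. Per the study's methods and the submitters' processing notes, the authors trimmed adapters (cutadapt 1.8.1), collapsed molecular identifiers, removed ribosomal reads, aligned to hg38 (Bowtie2 2.4.4, SAMtools 1.9) and counted the reads of each gene (bedtools). The deposited values are raw counts per gene. The annotation and strand setting are not given in the sources used here. GENCODE v44 gave names and coordinates.

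Counts of all genes were fitted in R 4.3.3 with edgeR 4.0.16 (filterByExpr, TMM, glmQLFit, glmQLFTest, Benjamini-Hochberg over all kept genes, FDR under 0.1), with no replicate term. The SE is the log2 fold change over the root of its F. The fit was also run on simulated counts with known changes. These held no replicate effect, so they cannot show whether a fit without the block suits these libraries. Alternatives were DESeq2 1.42.0, its size factors, total counts, no filter, the replicate block, each replicate number left out, and other sets of members. Each alternative was run alone, so fits with a replicate number left out had no block. Deviations from group means correlated at 0.287 on average for 55 pairs of libraries with the same number and at -0.0825 for 165 others. The treatment protocol ties a replicate to a time of collection, and that a number in the titles marks it is a reading of both. Whether the replicates came from separate cultures beyond this is not given, so p-values measure the spread between these libraries.

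Named genes were the marker LINC02925, the largest called changes in each contrast, the smallest p-values over the course, the 5 highest densities and the list of 10. The members and lists were chosen with earlier results of these data known. Library totals were 4408544 to 17571616 counts, and members had mean counts of 201.3 to 6170 per library, which sets their precision.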

Additional observations from a re-analysis of the deposited data

Results flagged for a closer look

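In groups of 4 libraries, 1 library stood far from the other 3 by Dixon's test in 5 of 110 groups tested, and chance alone gives about 1 in 20. LINC02694 had 59.8 CPM in 1 h replicate 3, where the others had 43.3 to 45.2. LINC02593 had 24.8 CPM in 0.5 h replicate 1, against 31.1 to 32.0. LINC01783 had 117 CPM in 2 h replicate 1 (others 42.6 to 50.2) and 356 CPM in 4 h replicate 1 (others 42.8 to 80.7). LINC00472 had 55.7 CPM in DMSO replicate 2, against 64.3 to 65.7.

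The effect of dTAG differed between 24 h and 0.5 h for 4 members by the edgeR contrast of the 2 times. The log2 difference was 0.26 for LINC02568 (0.03 at 0.5 h and 0.29 at 24 h, FDR = 0.00403), 0.43 for LINC02057 (0.08 and 0.51, FDR = 0.00525), 0.32 for LINC01983 (-0.15 and 0.17, FDR = 0.0994) and -0.39 for LINC02457 (0.24 and -0.16, FDR = 0.0898).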

How the results depend on the processing

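Of 306 log2 fold changes of named members under other settings, 241 kept their direction and side of the threshold, 65 kept the direction and lost the call, and 0 reversed. These values come from 34 named results, of which 23 were called. Results that were not called could not lose a call, so the 241 overstate how stable the calls were. Of the 23 calls, 6 were lost with no filter on low counts (LINC01322 and LINC00578 at 2 times each, LINC03000 and LINC00885), 11 with total counts only (LINC02694, LINC00536, LINC01322 and LINC00578 at 2 times each, LINC02568, LINC02593 and LINC00885), 0 with DESeq2 or its size factors, and 8, 14, 9 and 17 without replicate 1, 2, 3 and 4. The counts of called members, in the order 0.5, 1, 2, 4 and 24 h, course, and 24 h against 0.5 h, were 3, 6, 4, 4, 6, 7 and 4. With the replicate block they were 12, 15, 11, 13, 13, 21 and 25, and the block removed none of the 23 calls. With total counts only they were 1, 3, 2 and 1 up to 4 h, and 2 and 2 in the last comparisons. DESeq2 called 6 at 0.5 h, 7 at 2 h, 11 over the course and 7 between 24 h and 0.5 h. With no filter the course gave 4 and 24 h against 0.5 h gave 2. A minimum of 500 counts (56 members) gave 1, 1, 1, 1, 2, 2 and 1, and a minimum of 100 (244 members) gave 7 at 4 h and 11 at 24 h. Among the 40 members that overlap no annotated gene the counts were 1, 2, 2, 2, 1, 4 and 2. Leaving out 1 replicate number gave 0 to 3, 2 to 4, 0 to 4, 1 to 3, 2 to 7, 0 to 5 and 0 to 7. The cause of these shifts was not tested, beyond the smaller sets of genes or libraries. By the distance between starts, 16 of 20 calls (80.0%) had a neighbour of the same sign. Without at least 1 replicate number 19 of the 23 calls were lost, and 4 held without each of them: LINC02925 at 1 h, LINC02568 at 4 and 24 h, and LINC02057 at 24 h. These fits had no replicate block, and how calls with the block depend on 1 replicate number was not tested.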
